A study of Homo sapiens with 18 samples.

Results

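KLK2, KLK3, KLK4 and KLK15 are the kallikrein-related peptidase genes of the prostate, and they lie next to each other on chromosome 19. They were taken by symbol from a deposited table of RNA levels, where they are 4 of 37347 rows, and each was at or above the level needed for testing, so that all 4 were tested. The table covers 18 libraries of 16D, a human prostate cancer line that is castration-resistant. All cells had received lentivirus with Cas9 and a guide RNA: a control guide against the AAVS safe-harbour site, OGDHL guide 1 or OGDHL guide 2. OGDHL encodes a relative of a 2-oxoglutarate dehydrogenase subunit. For each guide, cells spent 6 weeks with DMSO as vehicle or with enzalutamide at 10 µM, an antiandrogen drug, and each of the 6 groups held 3 libraries. Whether a group was a clone or a mixed population is not given in the sources used here. Nothing in the labels says that replicates were separate cultures, so p-values measure the spread between these libraries, which may be technical.

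Kallikreins are secreted serine proteases made as inactive precursors. KLK3 encodes prostate-specific antigen, which cleaves semenogelins and liquefies semen and is measured in blood to follow prostate cancer. KLK2 encodes human glandular kallikrein, a trypsin-like relative of KLK3, and KLK4 and KLK15 encode further trypsin-like members. In prostate epithelium androgens switch on KLK3 and KLK2, which is why KLK3 is a common readout of androgen signalling and of antiandrogens.

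The 4 genes span 85.45 kb of chromosome 19 in the GENCODE annotation of GRCh38. KLK15 (ENSG00000174562.13, chr19:50825289-50837213) is on the minus strand, KLK3 (ENSG00000142515.14, chr19:50854915-50860764) and KLK2 (ENSG00000167751.12, chr19:50861568-50880567) are on the plus strand, and KLK4 (ENSG00000167749.11, chr19:50906352-50910738) is on the minus strand. The pseudogene KLKP1 (chr19:50882096-50896398) lies between KLK2 and KLK4. AC011523.1, on the opposite strand (chr19:50830530-50851089), overlaps KLK15, and whether the authors counted by strand is not given in the sources used here. KLK3 and KLK2 are close copies. Of the 5119 distinct 50-base stretches in annotated KLK3 transcripts, 11 (0.215%) also occur in KLK2 transcripts, and none of them occurs in KLK4 or KLK15. A small share of reads of that length could therefore be counted for either KLK3 or KLK2.

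The promoters are shown because KLK3 and KLK2 start from nearly the same sequence, while KLK4 and KLK15 do not. Each line holds the 250 bases before a RefSeq start site in GRCh38.p14, read 5′ to 3′ on the strand of its gene. They are KLK3 (chr19:50854665-50854914, plus), KLK2 (chr19:50873189-50873438, plus), KLK15 (chr19:50833575-50833824, minus) and KLK4 (chr19:50911396-50911645, minus). Capitals in KLK3 and KLK2 mark first the androgen element match described below and then the TATA box on the opposite strand, and capitals in KLK15 mark the TATA box.
KLK3: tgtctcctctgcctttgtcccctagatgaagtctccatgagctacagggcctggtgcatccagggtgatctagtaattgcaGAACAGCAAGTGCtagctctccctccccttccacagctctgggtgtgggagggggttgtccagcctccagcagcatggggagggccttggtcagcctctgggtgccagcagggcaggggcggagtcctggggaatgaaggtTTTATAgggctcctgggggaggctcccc
KLK2: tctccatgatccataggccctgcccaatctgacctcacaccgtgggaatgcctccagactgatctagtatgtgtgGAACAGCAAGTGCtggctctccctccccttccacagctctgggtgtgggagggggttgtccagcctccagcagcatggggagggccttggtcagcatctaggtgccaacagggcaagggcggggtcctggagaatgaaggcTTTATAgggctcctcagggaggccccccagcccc
KLK15: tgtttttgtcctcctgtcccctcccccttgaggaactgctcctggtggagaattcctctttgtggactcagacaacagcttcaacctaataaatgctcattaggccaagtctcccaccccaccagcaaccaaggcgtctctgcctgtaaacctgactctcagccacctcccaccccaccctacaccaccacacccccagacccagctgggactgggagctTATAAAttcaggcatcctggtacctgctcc
KLK4: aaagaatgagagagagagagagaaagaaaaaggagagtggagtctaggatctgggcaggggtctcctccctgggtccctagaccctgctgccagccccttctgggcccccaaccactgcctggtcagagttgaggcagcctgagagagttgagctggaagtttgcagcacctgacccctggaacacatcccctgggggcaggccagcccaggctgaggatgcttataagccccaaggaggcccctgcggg

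The KLK3 and KLK2 windows were 80.2% identical in a global alignment with 26 mismatches and 26 gap positions, whereas windows of different members otherwise shared 45.5% to 51.6%. Each window was searched on both strands. The core of the androgen response element was written as GNACA, 3 free bases and TGTNC, and it was found in no window of the 4 genes and in 0.390% of 35116 RefSeq promoter windows. With 1 more base left free (GNACA, 4 free bases, GTNC), KLK3 held the match GAACAGCAAGTGC at bases -169 to -157 from its start and KLK2 held the same 13 letters at -175 to -163. That looser pattern was present in 2.19% of all windows and in none of the other member windows. The hexamer AGAACA occurred in KLK3 and in no other member window, against 14.8% of all windows, and it overlaps the element match. TATAAA was found in KLK3 and KLK2 on the opposite strand and in 1 KLK15 window on the same strand, against 11.5% of all windows. KLK15 and KLK4 each have 1 further RefSeq start, and those windows held none of the patterns. A match is a run of letters, and binding was not measured here.

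Levels are in TPM, the share of a gene in all transcripts of a library after division by gene length, scaled to a fixed sum, so genes of a library can be compared. TPM keeps no sequencing depth, so the depth behind each value was unknown. KLK3 was the most abundant of the 4 in control cells in vehicle at 379 ± 5.70 TPM (SD, n = 3), followed by KLK4 at 104 ± 1.35, KLK2 at 35.0 ± 0.866 and KLK15 at 2.51 ± 0.0643. By median rank among symbols that are not mitochondrially encoded, KLK3 stood at 153 and KLK4, KLK2 and KLK15 at 523, 1448 and 8698 in that group. The other 12 kallikrein symbols were low. KLKP1 was the only one of them tested, and the other 11 stayed at or below 0.635 TPM in all 18 libraries.

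The libraries carried the marks of prostate luminal cells. HOXB13, a homeobox transcription factor of the prostate, had 94.6 to 412 TPM over the 18 libraries, and the luminal keratin genes KRT18 and KRT8 had 85.2 to 201 TPM and 4.57 to 24.5 TPM. Summed markers reached at most 0.394 TPM for basal cells (3 genes), 1.06 for neuroendocrine cells (4 genes) and 0.383 for endothelium (3 genes). Fibroblast markers (4 genes) summed to 3.72 to 8.64 TPM, of which COL1A1 had 2.94 to 8.63 TPM and LUM up to 1.17 TPM. The 3 libraries labelled guide 2 in vehicle were unlike the rest. Their correlation with other groups across genes was 0.884 to 0.922, against 0.950 to 0.997 among the other groups. Their summed leukocyte markers (4 genes) were 10.2 to 11.0 TPM, against 0.383 to 0.734 elsewhere, all but a trace of it from CD68, while PTPRC, which defines leukocytes, was at most 0.00120 TPM in any library. OGDHL had 2.11 to 2.17 TPM in control cells in vehicle and 2.64 to 3.36 TPM in those libraries, so its RNA was not lower there. Editing of OGDHL was not measured here, and the labels were kept. OGDHL was 0.505 to 1.35 TPM with guide 1 in vehicle, 0.909 to 1.11 with guide 1 in enzalutamide, 1.63 to 1.80 with guide 2 in enzalutamide and 3.13 to 3.79 in control cells in enzalutamide. Mitochondrially encoded genes held 50.1% to 73.8% of TPM, with the top values in guide 1 vehicle libraries 1 and 2 (73.8% and 69.9%, against 57.2% in library 3).

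Because TPM has a fixed sum, a shift in a few abundant genes moves all others. The median log2 change of the 13416 tested genes was -0.05 for enzalutamide in control cells, 0.23 with guide 1 and -0.30 with guide 2. It was -0.32 for guide 1 and 0.18 for guide 2 in vehicle, and -0.06 and -0.07 in enzalutamide. Changes below are on the log2(TPM + 1) scale as deposited, which understates changes of low genes such as KLK15, and a value after median-of-ratios scaling, which centres the genes near 0, is given where it changes a call. Adjusted p-values are from limma with Benjamini-Hochberg adjustment over all 13416 genes, and a gene was called at an adjusted p under 0.05. Where groups are said not to overlap, the share of all tested genes without overlap was not counted. In bulk RNA, fewer cells with a transcript and less of it per cell cannot be told apart.

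**Figure D1:**
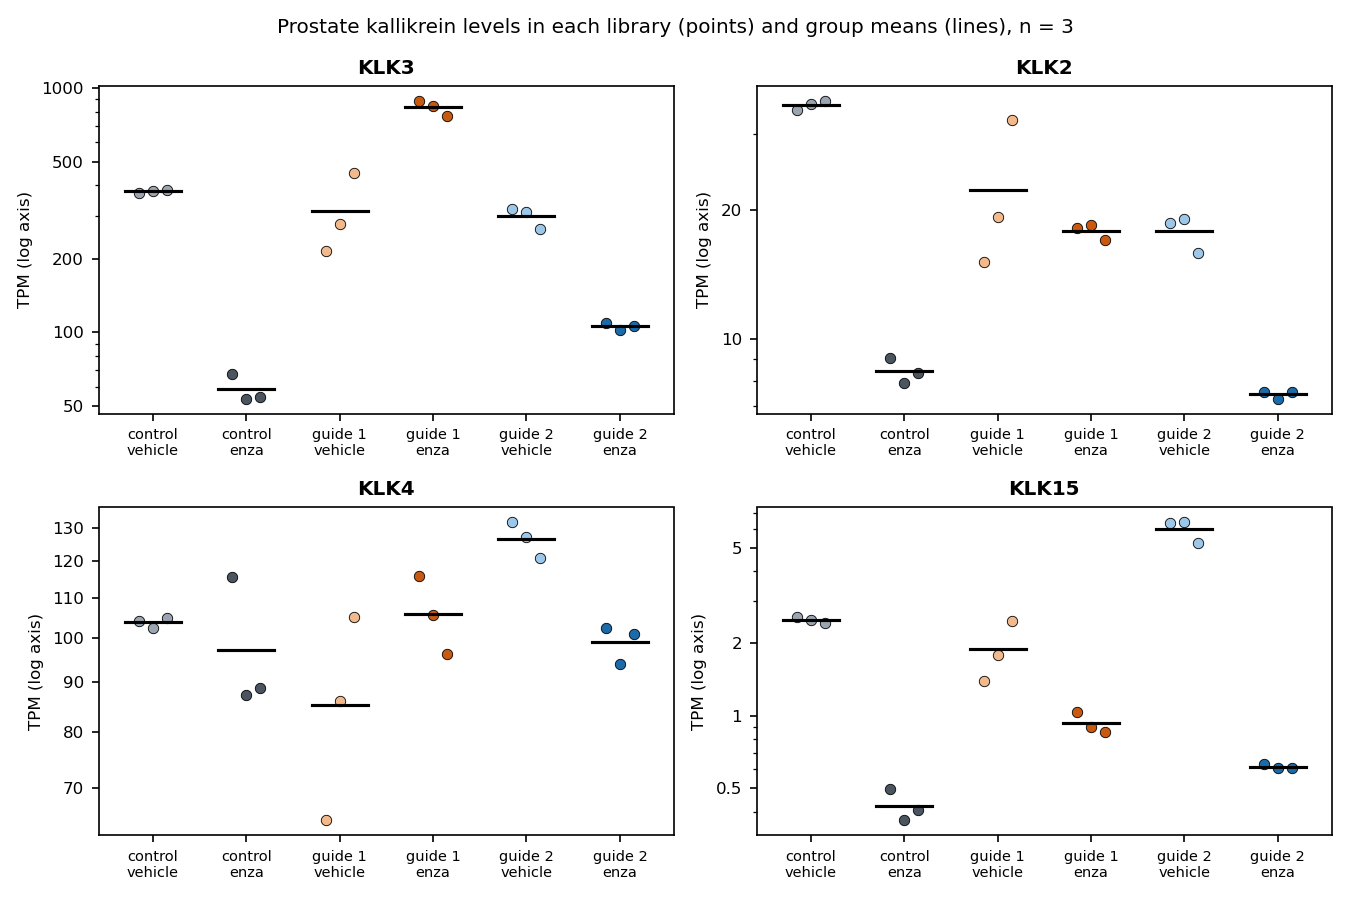
TPM of the 4 kallikreins on log axes, with 1 point per library (n = 3 per group) and a line at the group mean. KLK3 is low in control cells in enzalutamide (53.5 to 67.7 TPM) and highest with guide 1 in enzalutamide (772 to 888 TPM), KLK4 stays between 64.9 and 132 TPM in all groups, and KLK15 is highest in the libraries labelled guide 2 in vehicle.

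In control cells KLK3, KLK2 and KLK15 fell in enzalutamide, and KLK4 was not called. KLK3 had 373, 379 and 385 TPM in vehicle, against 67.7, 53.5 and 54.5 TPM in enzalutamide, a 6.47-fold lower mean. The groups did not overlap. KLK2 had 34.1, 35.2 and 35.8 TPM in vehicle, against 9.05, 7.90 and 8.37 TPM in enzalutamide, a 4.15-fold lower mean. KLK15 had 2.57, 2.51 and 2.44 TPM in vehicle, against 0.495, 0.368 and 0.408 TPM in enzalutamide, a 5.91-fold lower mean. For both, every enzalutamide library was below every vehicle library. KLK4 had 104, 102 and 105 TPM in vehicle, against 115.6, 87.4 and 88.9 TPM in enzalutamide. Library 1 in enzalutamide was above all vehicle libraries and the other two were below them. The log2 changes by limma were -2.68 ± 0.19 (SE) for KLK3 (adjusted p = 4.4e-09), -1.93 ± 0.18 for KLK2 (adjusted p = 1.7e-07) and -1.30 ± 0.10 for KLK15 (adjusted p = 2.7e-08). KLK4 changed by -0.10 (95% interval -0.42 to 0.22, adjusted p = 0.70), and with array weights it was called lower (-0.22, adjusted p = 4.1e-07). Of the 4 kallikreins 3 were called, all lower, against 20.8% of all tested genes called in either direction.

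In guide 1 cells the drug went with more KLK3, not less. KLK3 had 215, 277 and 450 TPM in vehicle, against 888, 843 and 772 TPM in enzalutamide, a 2.66-fold higher mean, and the lowest enzalutamide library was above the highest vehicle library. The vehicle libraries were far apart, with library 3 highest. KLK15 went the other way, from 1.40, 1.80 and 2.47 TPM in vehicle to 1.04, 0.901 and 0.860 TPM in enzalutamide, a 2.02-fold lower mean without overlap. KLK2 had 15.1, 19.3 and 32.3 TPM in vehicle, against 18.2, 18.5 and 17.0 TPM in enzalutamide, and KLK4 had 64.9, 86.1 and 105 TPM in vehicle, against 115.8, 106 and 96.3 TPM in enzalutamide. For KLK2 and KLK4 the groups overlapped. KLK3 rose by 1.47 ± 0.19 (adjusted p = 2.3e-05) and KLK15 changed by -0.56 ± 0.10 (adjusted p = 9.7e-04), so 2 of 4 were called, against 29.9% of all genes. KLK2 changed by -0.23 (95% interval -0.61 to 0.14, adjusted p = 0.30) and KLK4 by 0.33 (0.01 to 0.65, adjusted p = 0.0996). After median-of-ratios scaling KLK2 was called lower (-0.55, adjusted p = 3.4e-06), KLK4 moved to 0.00 (adjusted p = 1.00) and KLK3 remained higher (1.14, adjusted p = 4.5e-10). The KLK15 call was lost when only the 6 libraries of the comparison were fitted (adjusted p = 0.087) and with array weights (-0.33, adjusted p = 0.087), where KLK4 was called higher (0.69, adjusted p = 0.018).

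With guide 2 the drug response had the directions seen in control cells for 3 genes. KLK3 had 320, 311 and 265 TPM in the libraries labelled guide 2 in vehicle and 110, 102 and 106 TPM in enzalutamide, a 2.82-fold lower mean. KLK2 had 18.6, 19.02 and 15.9 TPM in vehicle, against 7.54, 7.28 and 7.56 TPM in enzalutamide, a 2.39-fold lower mean. KLK15 had 6.33, 6.38 and 5.26 TPM in vehicle, against 0.634, 0.606 and 0.606 TPM in enzalutamide, a 9.74-fold lower mean. None of these 3 genes overlapped between groups. KLK4 had 132, 127 and 121 TPM in vehicle, against 102, 94.1 and 101 TPM in enzalutamide, also without overlap. The log2 changes were -1.48 ± 0.19 for KLK3 (adjusted p = 2.8e-06), -1.15 ± 0.18 for KLK2 (adjusted p = 2.6e-05) and -2.11 ± 0.10 for KLK15 (adjusted p = 5.6e-12). KLK4 changed by -0.35 (adjusted p = 0.057), close to the median of all genes, and by 0.04 after median-of-ratios scaling (adjusted p = 0.62). It was called lower with the 6 libraries alone (adjusted p = 0.0046, or 0.016 with a replicate block), without mitochondrially encoded genes (-0.17, adjusted p = 0.022) and with array weights (adjusted p = 4.5e-07). The count was 3 of 4, all lower, against 59.5% of all genes. These values rest on the 3 vehicle libraries that stand apart.

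**Figure D2:**
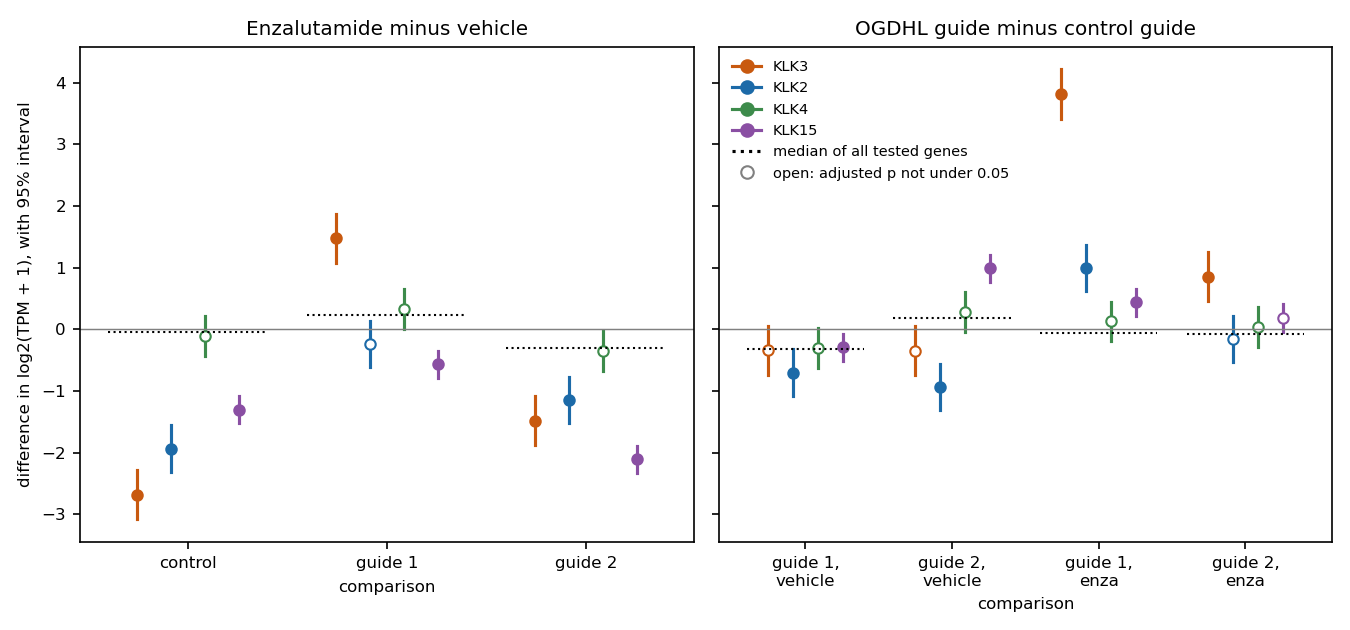
Differences in log2(TPM + 1) with 95% intervals from limma, for enzalutamide minus vehicle within each guide (left) and for each OGDHL guide minus the control guide (right); open points were not called and dotted lines give the median of all tested genes. KLK3 runs from -2.68 to 1.47 across the drug comparisons and to 3.82 for guide 1 in enzalutamide, while no KLK4 point was called by limma as deposited.

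The drug response of KLK3, KLK2 and KLK15 differed between guide 1 and control cells by the interaction term, which is the drug change with guide 1 minus the drug change in control cells. It was 4.15 ± 0.27 for KLK3 (adjusted p = 1.6e-08), 1.70 ± 0.25 for KLK2 (adjusted p = 3.5e-04) and 0.74 ± 0.15 for KLK15 (adjusted p = 0.0055). The KLK15 call was lost in a fit of the 12 libraries with a replicate block (adjusted p = 0.057). KLK4 had 0.44 (95% interval -0.02 to 0.89, adjusted p = 0.17). The 3 calls of 4 compare with 6.95% of all genes called. The sign was the same for the 3 genes, and the size was largest for KLK3. This scale understates the low KLK15, so the sizes of KLK2 and KLK15 are not ranked here. Over the alternatives other than leaving out 1 library, the interaction was 3.57 to 4.72 for KLK3. It was 1.11 to 2.17 for KLK2 and 0.26 to 1.41 for KLK15. Less the median interaction of all genes (0.27), the values as deposited were 3.89, 1.43 and 0.47 for KLK3, KLK2 and KLK15.

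The interaction with guide 2 split the genes. It was 1.20 ± 0.27 for KLK3 (adjusted p = 0.0015) and 0.78 ± 0.25 for KLK2 (adjusted p = 0.018), but -0.81 ± 0.15 for KLK15 (adjusted p = 2.6e-04). KLK4 had -0.25 (adjusted p = 0.38). Thus 3 of 4 were called, 2 in the positive direction, against 43.6% of all genes. KLK15 had its highest level in the vehicle libraries that stand apart, while in enzalutamide it had 0.606 to 0.634 TPM with guide 2 and 0.368 to 0.495 TPM in control cells. Both interactions use the control libraries, and the 2 guides cannot be compared through them as independent results.

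In enzalutamide, guide 1 cells had more KLK3, KLK2 and KLK15 than control cells. KLK3 was 14.2-fold higher, at 834 ± 58.4 against 58.6 ± 7.92 TPM (SD, n = 3 each). KLK2 was 2.12-fold higher, at 17.9 ± 0.779 against 8.44 ± 0.580 TPM, and KLK15 was 2.20-fold higher, at 0.934 ± 0.0954 against 0.424 ± 0.0646 TPM. No library of either group fell in the range of the other for these 3 genes. KLK4 was at 106 ± 9.79 and 97.3 ± 15.9 TPM with overlap. The log2 differences were 3.82 ± 0.19 (adjusted p = 2.1e-10), 1.00 ± 0.18 (adjusted p = 0.0012) and 0.44 ± 0.10 (adjusted p = 0.012) for KLK3, KLK2 and KLK15, and 0.13 for KLK4 (95% interval -0.19 to 0.45, adjusted p = 0.74). All 3 calls were higher, against 7.07% of all genes called in either direction. The KLK15 call was lost without control enzalutamide library 3 (adjusted p = 0.052) or guide 1 enzalutamide library 1 (adjusted p = 0.069) and with a pseudocount of 5 (0.13, adjusted p = 0.12). KLK4 was called higher after median-of-ratios scaling (0.22, adjusted p = 0.014).

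Guide 2 cells in enzalutamide differed from control cells in KLK3 alone among the 4 by the call. KLK3 was at 106 ± 3.52 against 58.6 ± 7.92 TPM, 1.81-fold higher without overlap, with a log2 difference of 0.85 ± 0.19 (adjusted p = 0.030). KLK2 (-0.16, adjusted p = 0.85), KLK4 (0.04, adjusted p = 0.96) and KLK15 (0.18, adjusted p = 0.62) were not called, and 1.25% of all genes were. The groups did not overlap for KLK2 either, at 7.28 to 7.56 TPM with guide 2 against 7.90 to 9.05 TPM in control cells. Nor did they for KLK15, at 0.606 to 0.634 against 0.368 to 0.495 TPM. For KLK4 they overlapped. The KLK3 call was lost when any of the 3 guide 2 enzalutamide libraries, or control enzalutamide library 2 or 3, was left out (adjusted p up to 0.18). After median-of-ratios scaling KLK15 was also called higher (0.22, adjusted p = 1.2e-04).
Set against guide 1 in enzalutamide, guide 2 cells had 7.87-fold less KLK3 (-2.96 ± 0.19, adjusted p = 6.8e-09) and 2.40-fold less KLK2 (-1.16 ± 0.18, adjusted p = 2.3e-04). KLK4 (-0.09, adjusted p = 0.79) and KLK15 (-0.26, adjusted p = 0.12) were not called, and 12.9% of all genes were. The KLK15 libraries of the 2 groups did not overlap, and KLK15 was called lower with median-of-ratios scaling (-0.26, adjusted p = 6.0e-06), without mitochondrially encoded genes, with quantile normalization, with array weights and with a pseudocount of 0.1 (adjusted p = 0.038).

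In vehicle 2 of the 4 genes were called for each OGDHL guide. With guide 1, KLK2 was lower than in control cells (22.2 ± 8.99 against 35.0 ± 0.866 TPM, log2 difference -0.70, adjusted p = 0.018) and so was KLK15 (1.89 ± 0.540 against 2.51 ± 0.0643 TPM, -0.29, adjusted p = 0.027). KLK3 (-0.34, adjusted p = 0.12) and KLK4 (-0.31, adjusted p = 0.088) were not called. The 2 calls of 4 stand against 57.8% of all genes, and only KLK2 lay below the median change of all genes by more than 0.1. After median-of-ratios scaling KLK2 was called at -0.23 (adjusted p = 0.015), KLK15 moved to 0.03 (adjusted p = 0.42), and KLK3 (0.15, adjusted p = 0.045) and KLK4 (0.18, adjusted p = 0.039) were called higher. Guide 1 vehicle library 3 stood above the other two. It had 450 TPM of KLK3 and 32.3 TPM of KLK2, near or above control, and without it all 4 genes were called lower. Leaving out guide 1 vehicle library 1 or 2, or control library 1 or 3, left none of the 4 called, and leaving out control library 2 left 1.

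In the libraries labelled guide 2 in vehicle, KLK15 was 2.39-fold higher than in control cells (5.99 ± 0.634 against 2.51 ± 0.0643 TPM, log2 difference 0.99 ± 0.10, adjusted p = 2.4e-07) and KLK2 was 1.96-fold lower (17.8 ± 1.72 against 35.0 ± 0.866 TPM, -0.94 ± 0.18, adjusted p = 2.0e-04). KLK3 (-0.35, adjusted p = 0.12) and KLK4 (0.28, adjusted p = 0.12) were not called as deposited, although neither group overlapped. The 2 calls in opposite directions stand against 59.0% of all genes. After median-of-ratios scaling KLK3 was called lower (-0.57, adjusted p = 2.2e-07), and without mitochondrially encoded genes KLK3 was called lower (-0.30, adjusted p = 7.2e-04) and KLK4 higher (0.33, adjusted p = 1.6e-04). Against guide 1 in vehicle, KLK15 was higher (1.29 ± 0.10, adjusted p = 6.0e-09) and KLK4 was higher (0.59 ± 0.15, adjusted p = 0.0021), with KLK2 at -0.24 (adjusted p = 0.23) and KLK3 at -0.01 (adjusted p = 0.97), against 74.9% of all genes called. After median-of-ratios scaling KLK3 (-0.72, adjusted p = 1.5e-08) and KLK2 (-0.91, adjusted p = 2.2e-09) were called lower there, and they were also called lower after quantile normalization and without mitochondrially encoded genes. With array weights KLK3 was called higher (0.52, adjusted p = 0.029). The KLK4 difference was close to the median of all genes in that comparison (0.54) and became -0.11 after median-of-ratios scaling (adjusted p = 0.12), and its call was lost with the 6 libraries alone (adjusted p = 0.051). Whether the features that set these libraries apart bear on their KLK15 level was not tested.

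The order of groups differed between the genes. KLK3 was highest with guide 1 in enzalutamide, then in control, guide 1 and guide 2 cells in vehicle, whose neighbouring ranges overlapped, then with guide 2 and lowest with control in enzalutamide. KLK2 was highest in control cells in vehicle, its next 3 groups (guide 1 vehicle, guide 1 enzalutamide, guide 2 vehicle) overlapped from neighbour to neighbour, and control and then guide 2 cells in enzalutamide came last. KLK15 began with the libraries labelled guide 2 in vehicle, went on with control and guide 1 cells in vehicle, which overlapped, and ended with guide 1, guide 2 and control cells in enzalutamide. KLK4 was highest in the libraries labelled guide 2 in vehicle, and its other 5 groups overlapped from neighbour to neighbour.

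The sum of the 4 genes followed KLK3, its largest part in 5 of the 6 groups. It was 520 ± 6.94 TPM in control cells in vehicle, against 165 ± 24.4 TPM in enzalutamide, 424 ± 151 and 959 ± 68.8 TPM with guide 1, and 449 ± 37.0 and 213 ± 7.99 TPM with guide 2. KLK3 made up 72.8% of that sum in control cells in vehicle and 35.6% in enzalutamide, where KLK4 made up 59.0%. With guide 1 in enzalutamide KLK3 made up 87.0% and KLK4 11.0%. With guide 2 in enzalutamide KLK3 and KLK4 were nearly even, at 49.7% and 46.5%. KLK3 ranked 53 among symbols that are not mitochondrially encoded with guide 1 in enzalutamide (median of 3 libraries) and 842 in control cells in enzalutamide.

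**Figure D3:**
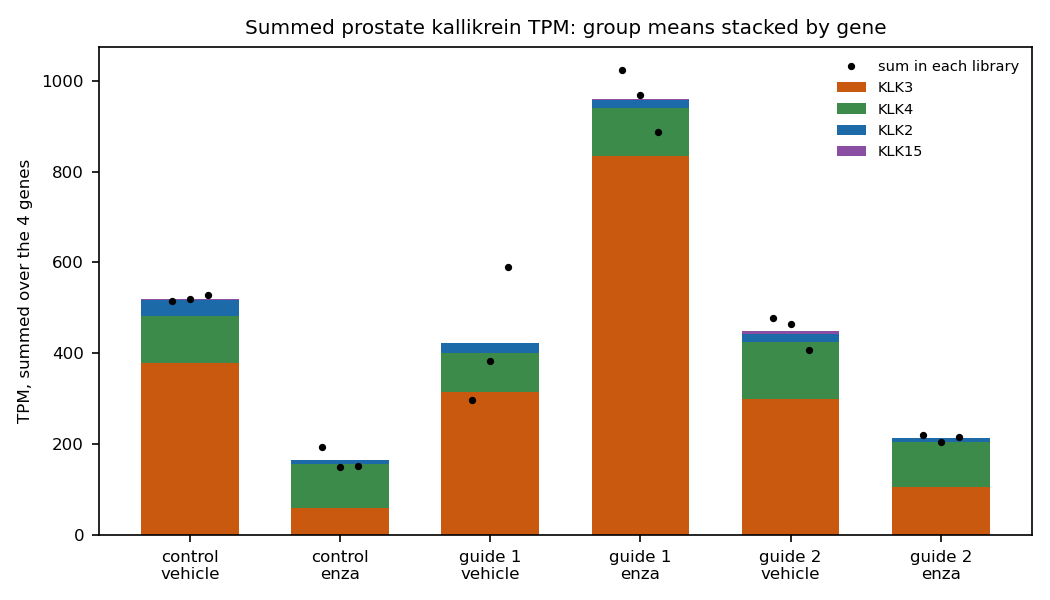
Group mean TPM of KLK3, KLK4, KLK2 and KLK15 stacked from 0, with black points for the sum in each library (n = 3 per group). The stack is tallest with guide 1 in enzalutamide (959 TPM, 87.0% of it KLK3) and shortest in control cells in enzalutamide (165 TPM, 59.0% of it KLK4).

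Ratios between members within a library show how far they move together, and any scaling shared by a library cancels in a plain ratio of TPM. The log2 ratios below add 0.1 TPM to each gene, so the cancelling is not exact for the low KLK15. The KLK3/KLK2 ratio was tight within groups. It was 11.0, 10.8 and 10.8 in control libraries in vehicle and 7.48, 6.77 and 6.51 in enzalutamide. With guide 1 it was 14.3, 14.4 and 13.9 in vehicle and 48.9, 45.6 and 45.4 in enzalutamide. With guide 2 it was 17.2, 16.4 and 16.7 in vehicle and 14.5, 14.1 and 14.0 in enzalutamide. The 3 guide 1 vehicle libraries, whose KLK3 and KLK2 levels were far apart, thus had nearly the same ratio of these 2 genes. Library 3 departed more in the other pairs. KLK3/KLK4 was 3.32, 3.22 and 4.28 there, and KLK2/KLK4 was 0.233, 0.224 and 0.307. KLK3/KLK15 was 153, 154 and 182, KLK2/KLK15 was 10.8, 10.7 and 13.1, and KLK4/KLK15 was 46.3, 47.9 and 42.6. The mean log2 KLK3/KLK2 ratio in enzalutamide less that in vehicle was -0.66 in control cells, 1.72 with guide 1 and -0.25 with guide 2. The groups did not overlap in any guide. Within 1 guide an exact permutation test of 3 libraries against 3 cannot go below 0.1, which is the p of each of these differences.

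The drug effect on each ratio was also averaged over the 3 guides and tested by an exact two-sided permutation of drug labels within guides (8000 arrangements, smallest possible p 0.00025), with adjustment over the 6 pairs. By this exact permutation test KLK2/KLK4 changed by -1.13 (p = 0.00025, adjusted p = 0.0005) and was lower in each guide, by 1.94, 0.57 and 0.89 for control, guide 1 and guide 2. KLK4/KLK15 changed by 2.07 (exact permutation p = 0.00025, adjusted p = 0.0005), and KLK2/KLK15 by 0.93 (p = 0.00025, adjusted p = 0.0005), both higher in each guide. KLK3/KLK15 changed by 1.20 (exact permutation p = 0.005, adjusted p = 0.0075), with -0.38, 2.39 and 1.59 for control, guide 1 and guide 2, and so with no common direction. KLK3/KLK4 (-0.86, exact permutation p = 0.0535, adjusted p = 0.0642) and KLK3/KLK2 (0.27, p = 0.333, adjusted p = 0.333) were not called, and their per-guide changes had opposite signs: -2.59, 1.14 and -1.14 for KLK3/KLK4. With a pseudocount of 1 in place of 0.1 the changes of KLK3/KLK15 (0.43) and KLK2/KLK15 (0.22) were no longer called. The KLK3/KLK15 call was also lost without guide 1 or without guide 2 (exact permutation, adjusted p = 0.1 and 0.15). Without guide 1, KLK3/KLK2 (-0.45) and KLK3/KLK4 (-1.87) were called lower (exact permutation, adjusted p = 0.006 each). KLK15 had 1.40 to 6.38 TPM in vehicle and at most 1.04 TPM in enzalutamide, so the sizes of its ratio changes depend on the pseudocount. Without one, the mean KLK3/KLK15 ratio in control cells was 151 in vehicle and 139 in enzalutamide. The mean KLK2/KLK15 ratio there was 14.0 in vehicle and 20.1 in enzalutamide.

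Averaged over the guides in the same way, KLK15 changed by -1.32 (p = 0.00025) and KLK2 by -1.11 (p = 0.00175), each by the exact permutation test. By the same exact test KLK3 changed by -0.90 (p = 0.0843) and KLK4 by -0.04 (p = 0.721). These are 4 tests, and the KLK3 average joins a rise with guide 1 to falls with the other 2 guides. Without guide 1 the KLK3 change was -2.08 (exact permutation p = 0.005) and the KLK4 change was -0.23 (exact permutation p = 0.02).

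**Figure D4:**
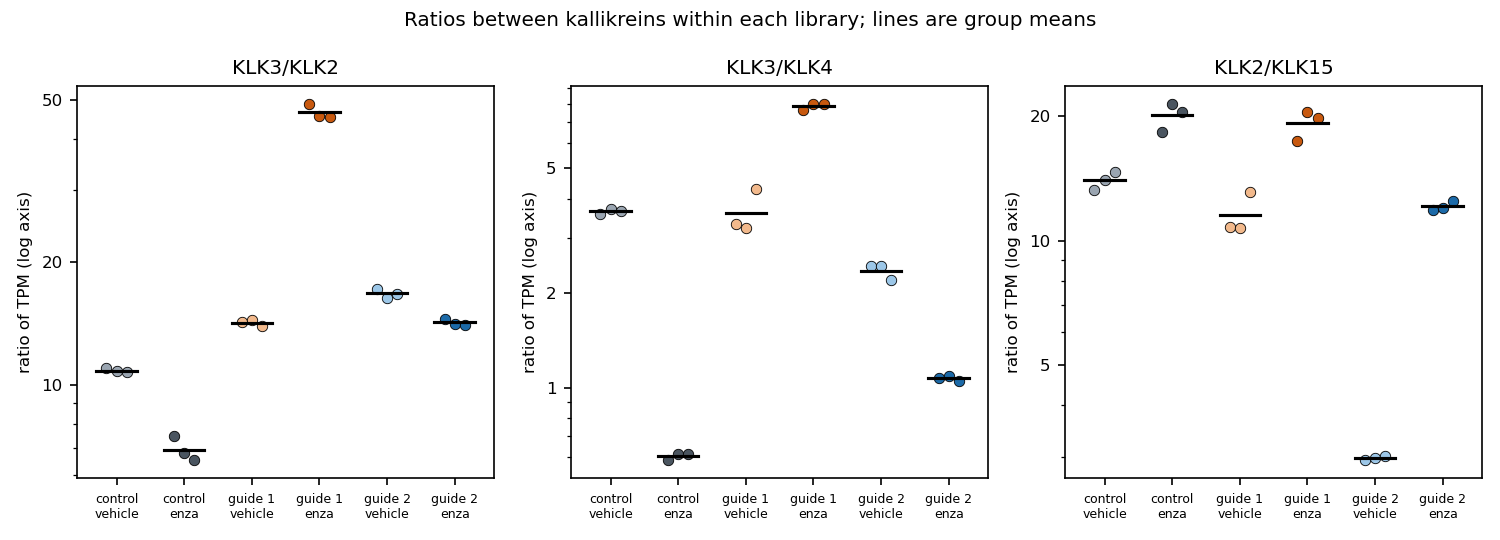
Ratios of TPM between kallikreins in each library on log axes (n = 3 per group), with lines at group means. KLK3/KLK2 is 45.4 to 48.9 with guide 1 in enzalutamide and 6.51 to 17.2 in the other 5 groups, and KLK2/KLK15 is lowest in the libraries labelled guide 2 in vehicle.

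Within groups, the members moved together in TPM as deposited and less so, over all 18 libraries, after scaling. The Pearson correlation of their log2 deviations from group means over 18 libraries was 0.98 for KLK3 with KLK2, 0.93 for KLK3 with KLK4, 0.96 for KLK3 with KLK15, and 0.84 to 0.94 for the other 3 pairs. After median-of-ratios scaling it was 0.76 for KLK3 with KLK2, 0.04 for KLK3 with KLK4, 0.23 for KLK3 with KLK15, -0.33 for KLK2 with KLK4, -0.07 for KLK2 with KLK15 and 0.49 for KLK4 with KLK15. Without the 3 guide 1 vehicle libraries the scaled value over 15 libraries was lower for KLK3 with KLK2 (0.44) and KLK4 with KLK15 (0.29), and higher for KLK3 with KLK4 (0.67), KLK3 with KLK15 (0.46), KLK2 with KLK4 (-0.05) and KLK2 with KLK15 (-0.01). Over the 9 vehicle libraries, with group differences kept, the correlation was 0.89 for KLK3 with KLK2, 0.46 with KLK4 and 0.05 with KLK15. There it was 0.14 for KLK2 with KLK4, -0.29 for KLK2 with KLK15 and 0.89 for KLK4 with KLK15. In that order the 9 enzalutamide libraries gave 0.94, 0.45, 0.96, 0.44, 0.84 and 0.58. After scaling the values were 0.92, 0.18, -0.95, -0.07, -0.98 and -0.08 in vehicle. In enzalutamide they were 0.96, 0.77, 0.96, 0.62, 0.85 and 0.87. Those values are Pearson correlations, and Spearman correlations, taken on ranks, differed for several pairs. As deposited they were 0.83, 0.20, 0.05, -0.13, -0.12 and 0.85 in vehicle. The enzalutamide libraries gave 0.52, 0.70, 1.00, 0.50, 0.52 and 0.70. Scaled, the ranks gave 0.58, 0.37, -0.62, -0.30, -0.83 and 0.03 in vehicle, and 0.57, 0.95, 0.98, 0.47, 0.50 and 0.97 in enzalutamide. These points share libraries and their scaling, and the values are descriptions.

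The genes nearest the kallikreins were compared over the same libraries. KLKP1, a transcribed pseudogene beside KLK2, had 1.13 ± 0.102 TPM in control cells in vehicle, against 0.609 ± 0.0508 TPM in enzalutamide (log2 change -0.40, adjusted p = 0.0016), and 2.95 ± 0.315 and 0.713 ± 0.0594 TPM with guide 2 (-1.20, adjusted p = 8.0e-10). With guide 1 KLKP1 had 0.997 ± 0.261 TPM in vehicle, against 0.688 ± 0.0446 TPM in enzalutamide (-0.23, adjusted p = 0.044). In the libraries labelled guide 2 in vehicle it was 2.61-fold higher than in control cells (0.89, adjusted p = 5.6e-08), beside the 2.39-fold of KLK15. KLK1, which encodes tissue kallikrein and lies beyond KLK15, was too low to test. It had 0.492 to 0.635 TPM in control cells in vehicle, against 0.0239 to 0.0549 TPM in enzalutamide. With guide 1 it had 0.358 to 0.584 TPM in vehicle and 0.146 to 0.204 TPM in enzalutamide. With guide 2 it had 0.442 to 0.619 TPM in vehicle and 0.0652 to 0.0731 TPM in enzalutamide. Of 18 genes flanking the cluster 7 were tested. None was called for enzalutamide in control cells (20.8% of all genes) or for guide 1 in enzalutamide (7.07%). For enzalutamide 1 was called higher with guide 1 (29.9%) and 3 lower with guide 2 (59.5%). In vehicle all 7 were called lower with guide 1 (median -0.72, against -0.32 for all genes, of which 57.8% were called), and 2 were higher and 2 lower with guide 2 (59.0%).

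By Pearson correlation of log2(TPM + 1) over the 18 libraries, the 5 genes most like KLK3 were TMEFF2 (0.96), POTEH-AS1 (0.96), PHLDA1-DT (0.95), PHLDA1 (0.95) and GULP1 (0.94). TMEFF2, which encodes a membrane protein of prostate and brain, had 2.90 ± 0.0129 TPM in control cells in vehicle, 0.0128 ± 0.00794 in enzalutamide and 4.48 ± 0.292 with guide 1 in enzalutamide. Those most like KLK2 were DSG2, a desmosomal cadherin (0.98), ME1 (0.98), ABCB10 (0.97), CEBPD (0.97) and SLC45A3, which encodes prostein (0.97). Those most like KLK15 were ZNF812P, FNIP2, S100A11, PPFIBP2 and SOAT1 (each 0.99), all highest in the libraries labelled guide 2 in vehicle. Those most like KLK4 were GPKOW, SF3A1, MED11, AGBL5 (each 0.96) and SLC36A1 (0.95), and after median-of-ratios scaling 4 of these ranked 572 or lower for KLK4, while SF3A1 ranked 2. No gene stood in more than 1 of the 4 groups of nearest genes. These correlations follow group differences and carry no test.

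Other androgen-responsive genes were set beside the kallikreins. Of 36 such genes 30 were tested. For enzalutamide in control cells 28 were called lower and none higher (median -1.23, against -0.05 for all genes, of which 20.8% were called). With guide 1, 13 were called lower and 3 higher (median -0.22, with 29.9% of all genes called), and with guide 2, 25 lower and 1 higher (median -1.12, with 59.5% of all genes called). Between guide 1 and control cells in enzalutamide, 18 were called higher and 1 lower (median 0.54, against -0.06 for all genes, of which 7.07% were called), and the interaction with guide 1 was called for 21, all positive, against 6.95% of all genes. With guide 2 in enzalutamide 1 was called higher and none lower (median 0.01, with 1.25% of all genes called). The members named by size of change in control cells did not share 1 course with guide 1. SLC45A3 had 46.2 ± 1.20 TPM in control cells in vehicle, 2.52 ± 0.568 in enzalutamide and 22.9 ± 2.08 with guide 1 in enzalutamide (log2 difference 2.77, adjusted p = 8.7e-08). C1orf116 had 82.7, 16.7 and 55.2 TPM in the same 3 groups (1.67, adjusted p = 1.5e-06). MAF, a transcription factor, had 17.7, 1.85 and 0.911 TPM (-0.57, adjusted p = 0.0015), and ACSL3, a fatty acid activating enzyme, had 43.3, 6.25 and 9.62 TPM (0.56, adjusted p = 0.0059). The difference of KLK3 between guide 1 and control cells in enzalutamide (3.82) was above that of each of the 30 listed genes, of which SLC45A3 had the highest.

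**Figure D5:**
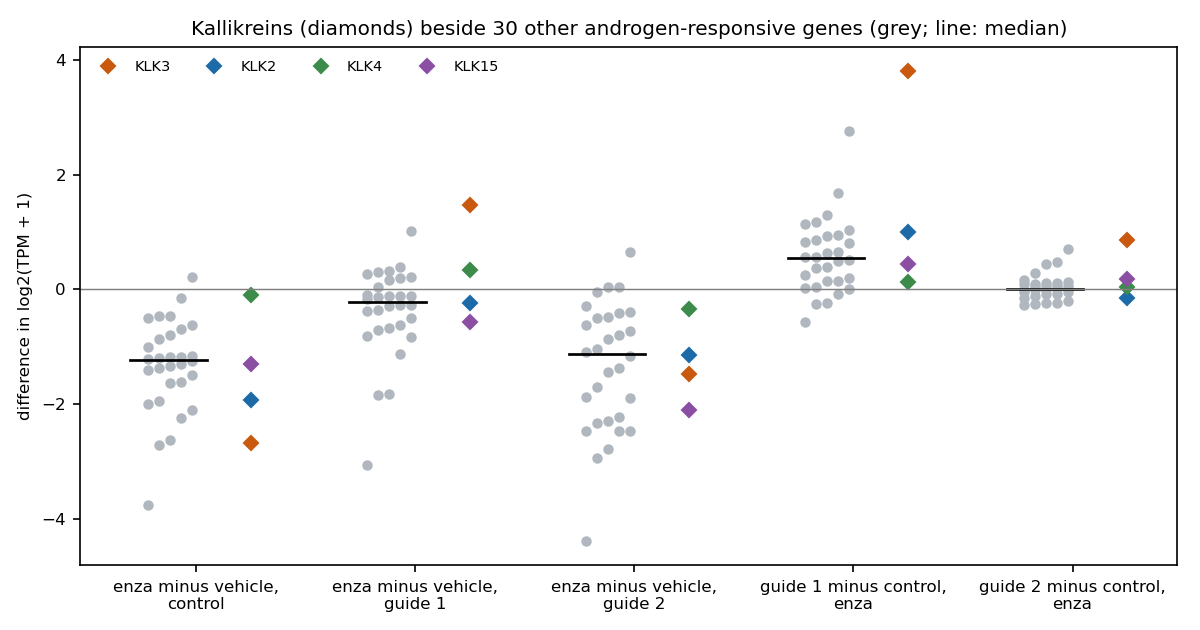
Differences in log2(TPM + 1) of the 4 kallikreins (diamonds) beside the 30 tested androgen-responsive genes outside the family (grey points, line at their median). For guide 1 minus control in enzalutamide KLK3 (3.82) lies above all grey points and their median is 0.54; for enzalutamide in control cells KLK4 lies near 0 and the median is -1.23.

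Genes for partners of the kallikrein proteins were mostly low in these cells. Of 13 inhibitor genes 5 were tested, with 1 called higher and 1 lower for enzalutamide in control cells, where 20.8% of all genes were called. SLPI, a secreted protease inhibitor, had 3.06 TPM in vehicle, against 7.22 in enzalutamide (1.01, adjusted p = 1.2e-04). SERPINF2 had 0.189 and 0.0118 TPM (-0.23, adjusted p = 0.0055), trace values in both groups, and its group mean reached 1 TPM only in the libraries labelled guide 2 in vehicle (2.18 TPM). Of 16 substrate and receptor genes 6 were tested, with 3 higher and 2 lower, against the same 20.8%. IGFBP3, which encodes a growth factor binding protein that prostate-specific antigen can cleave, had 4.17 TPM in vehicle, against 215 in enzalutamide (5.38, adjusted p = 6.9e-15). With guide 1 in enzalutamide it had 38.6 TPM, lower than in control cells in enzalutamide (-2.44, adjusted p = 1.7e-09). In that comparison KLK3 was higher with guide 1. For guide 2 against control in enzalutamide KLK3 was also higher (0.85), while IGFBP3 was not called (-0.09, adjusted p = 0.90). These are RNA levels, cleavage was not measured, and a link between the 2 genes was not tested. F2RL1, a protease-activated receptor that trypsin-like kallikreins can cleave, had 14.5 and 4.52 TPM (-1.49, adjusted p = 4.5e-07). Of 14 genes for other secretory proteins of the prostate epithelium 10 were tested, with 2 higher and 5 lower, again against 20.8% of all genes. AZGP1 had 8.91 and 3.40 TPM (-1.17, adjusted p = 2.6e-06) and TMPRSS2, which encodes a membrane serine protease under androgen control, had 9.79 and 4.42 TPM (-1.003, adjusted p = 7.5e-05). ACP3, which encodes prostatic acid phosphatase, had 1.03 and 5.56 TPM (1.69, adjusted p = 5.4e-10), against the direction of KLK3.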

How the data were processed

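RNA was measured in 16D cells in 18 libraries, 3 for each guide and treatment. Per the labels' protocols, stranded mRNA libraries were read as paired ends on a NovaSeq X Plus. The submitters' processing notes name STAR and GRCh38. How genes were counted was not given in the sources used here. For 37347 rows the authors deposited TPM, scaled to the same sum in each library, so depth is unknown and abundant genes move all others. Rows without a gene name (10345 rows, holding 4.24% to 9.68% of all TPM) were dropped, and repeated symbols were summed or left out, which gave 26900 symbols.

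Values were changed to log2(TPM + 1), and the 13416 genes that reached 1 TPM in 3 or more libraries were fitted with limma 3.58.1 (R 4.3.3), as 6 group means with a prior with a trend, and p-values were adjusted by Benjamini-Hochberg over all of them (threshold 0.05). The procedure was tested on simulated data. Ratios were log2 of TPM + 0.1 over TPM + 0.1, tested by exact permutation of drug labels within guides in Python 3.11.15 (pandas 2.3.3, numpy 2.4.6, scipy 1.17.1), and plots were made in matplotlib 3.10.9. Beyond the 4 members, the text names up to 4 called genes per list by size of the drug change in control cells, KLKP1, the 5 most correlated genes per member and OGDHL. Some genes that this rule takes are not reported here. KLK1 and the values of other low kallikreins were picked with their values in view. The members and lists were chosen with earlier results of these data known. Alternatives were other pseudocounts, filters and scalings, mitochondrial genes removed, fits of own libraries, array weights, a replicate block and leaving out libraries. Replicate numbers paired only control with guide 1 in enzalutamide, judged from the data and not the labels: the deviations of same-number libraries correlated at 0.25, 0.11 and 0.20. Positions came from GENCODE and promoter sequences from RefSeq (GRCh38.p14), where all 4 members matched.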

Additional observations from a re-analysis of the deposited data

Results flagged for a closer look

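The drug response of 3 kallikreins differed between cells with an OGDHL guide and control cells by an interaction test in limma, for both guides. Of all tested genes, 6.95% were called in this test with guide 1 and 43.6% with guide 2. With guide 1 the difference in log2 change was 4.15 for KLK3 (adjusted p = 1.6e-08), 1.70 for KLK2 (adjusted p = 3.5e-04) and 0.74 for KLK15 (adjusted p = 0.0055). With guide 2 it was 1.20 for KLK3 (adjusted p = 0.0015), 0.78 for KLK2 (adjusted p = 0.018) and -0.81 for KLK15 (adjusted p = 2.6e-04). In each vehicle and enzalutamide group n was 3 libraries, and both sets use the same control libraries. With guide 1 all 3 enzalutamide libraries were above all 3 vehicle libraries for KLK3, and in control cells and with guide 2 all 3 were below.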

How the results depend on the processing

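The KLK3, KLK2 and KLK15 falls in control cells and with guide 2, the KLK3 rise with guide 1, the KLK3 and KLK2 differences of guide 1 in enzalutamide and the KLK3 and KLK2 interactions kept direction and call under every alternative run. Other counts of the 4 members called moved. For enzalutamide with guide 1 the count was 1 with own libraries only. For guide 1 in vehicle it was 1 with no filter, 0 with own libraries, with or without a replicate block, 4 with array weights, and 0 with guide 1 vehicle library 3 as the only one of its group, under either scaling (with median-of-ratios, chosen after seeing the data). For guide 2 in vehicle it was 4 with quantile normalization, mitochondrially encoded genes removed, own libraries with or without a replicate block, array weights, or that single library. For guide 2 in enzalutamide it was 2 with median-of-ratios, quantile or mitochondrial removal, 0 with a replicate block in all samples, 4 with array weights, 3 with the single library and median-of-ratios, and 0 without the 3 libraries labelled guide 2 in vehicle (chosen after seeing the data). For guide 2 less guide 1 in vehicle it was 4 with mitochondrial removal and 1 with own libraries, with or without a block. Calls over all genes moved as well. For guide 2 in enzalutamide 168 of 13416 genes were called as deposited. That count was 2351 with median-of-ratios, 2239 with quantile normalization and 2358 of 13379 with mitochondrial removal. For guide 2 in vehicle it was 7920 as deposited, 10401 with quantile normalization and 10436 of 13379 with mitochondrial removal. All-gene counts for the other alternatives are not given here.

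Leaving out 1 library gave 0 to 4 calls for guide 1 in vehicle, 2 to 4 for guide 2 in vehicle (4 without guide 1 vehicle library 1 or 3, which only share the estimate of spread) and 0 to 1 for guide 2 in enzalutamide. It left KLK2 with guide 1 at -0.46 to 0.063, KLK4 with guide 2 in enzalutamide at -0.032 to 0.17, and guide 2 less guide 1 in vehicle at -0.24 to 0.29 for KLK3 and -0.47 to 0.056 for KLK2, the upper values without guide 1 vehicle library 3. KLK4 over the 3 guides was -0.10 to 0.013.

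Signs also turned as follows. With quantile normalization KLK4 in control cells was 0.014. With array weights KLK2 with guide 1 was 0.23, and guide 2 less guide 1 in vehicle was 0.52 for KLK3 and 0.29 for KLK2. With median-of-ratios scaling KLK4 was 0.036 for enzalutamide with guide 2 (0.037 with the single library), 0.081 for the interaction with guide 2 (0.082) and -0.11 for guide 2 less guide 1 in vehicle. For guide 1 in vehicle, median-of-ratios, quantile normalization and mitochondrial removal gave 0.15, 0.17 and 0.15 for KLK3, 0.18, 0.17 and 0.18 for KLK4, and 0.030, 0.012 and 0.041 for KLK15. There the single library gave 0.25 for KLK3 and 0.019 for KLK4, and with median-of-ratios 0.28, 0.051 and 0.0090 for KLK3, KLK4 and KLK15.

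Over the guides, without guide 1 the drug change was -2.08 for KLK3 and -0.23 for KLK4 (exact permutation p = 0.005 and 0.02). For KLK3/KLK2 and KLK3/KLK4 it was then -0.45 and -1.87 (exact permutation, adjusted p = 0.006 each). For KLK3/KLK15 it was 0.61 and no longer called (exact permutation, adjusted p = 0.1). Without guide 2 it was 0.11 for KLK4 (exact permutation p = 0.47) and 1.01 for KLK3/KLK15, again not called (exact permutation, adjusted p = 0.15). With a pseudocount of 1 it was 0.43 for KLK3/KLK15 and 0.22 for KLK2/KLK15. A replicate block of pairs changed no call of the permutation tests, and same-number libraries share only a number except in control and guide 1 cells in enzalutamide, where the block fit called KLK3 and KLK2 and did not test KLK15. With the block, KLK15 lost its interaction with guide 1 (adjusted p = 0.057). The causes were not tested. TPM gives no depth, so counting error of the low KLK15 is unknown.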

Other observations

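The 10 kallikreins from KLK5 to KLK14 were at traces, with at most 0.277 TPM in any library, and none was tested. Of these, 9 had their highest group mean in the libraries labelled guide 2 in vehicle, and for 5 of them (KLK5, KLK7, KLK9, KLK11 and KLK13) each of those 3 libraries was above every other library. Over the 13484 symbols too low to test, those libraries held the highest mean for 60.1% and stood above every other library for 34.9%. They had 1407 to 1630 of the deposited rows at 0, against 3042 to 4498 elsewhere. KLK13, for example, had 0.0537 to 0.0705 TPM there and at most 0.0117 TPM elsewhere. KLK12 had its highest mean, 0.0225 TPM, in control cells in vehicle. These genes were chosen after their values were seen.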
